A study of Mus musculus with 6 samples.

Results

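Transcripts that the GENCODE M21 annotation classes as targets of nonsense-mediated decay were examined in the forebrain of mice at postnatal day 20 (P20). Members were the transcripts of that class with a mean of 20 or more estimated reads over the 6 mice. The rule took 2841 transcripts, called members here, of the 7181 of the class and of 117135 transcripts listed in all. They belonged to 2254 parent genes. A further part of the class was below the minimum or at 0, and 5834 of the 7181 had reads in at least 1 mouse. The members were chosen by their mean number of reads, so their levels and shares are a description.

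RNA-Seq was performed on the whole forebrain of 3 *Slc13a4*+/- mice (Nas2Del_Het_1024, Nas2Del_Het_1025 and Nas2Del_Het_1027) and 3 wild-type littermate controls (Nas2Del_WT_1016, Nas2Del_WT_1018 and Nas2Del_WT_1026), all C57BL/6 mice aged P20. Values of single mice are given in this order throughout. *Slc13a4* encodes a sodium-coupled sulfate transporter, and the *Slc13a4*+/- mice, labelled Nas2Del +/- Het, lacked 1 allele in every cell. In the brain this protein is known from the epithelium that secretes cerebrospinal fluid and from the inner meninges. The sample held all cells of the forebrain, so fewer cells of a type and less RNA per cell cannot be told apart. The comparison asked how the forebrain transcriptome differs when 1 allele is missing.

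The libraries held between 60340337 and 80410582 estimated reads, of which 0.620% to 0.645% fell on 1162 transcripts with no M21 entry and were set aside. *Slc13a4* was at 5.61, 6.57 and 5.41 CPM (estimated reads scaled by library size) in the *Slc13a4*+/- mice and at 10.4, 9.36 and 8.23 CPM in the wild-type mice. The groups did not overlap (log2 change -0.67, SE 0.11, adjusted p = 0.4995 by edgeR and 0.00238 by DESeq2). Forebrain markers were present in every mouse. *Slc17a7* of excitatory neurons was at 801 to 918 CPM and *Gad1* of inhibitory neurons at 339 to 383 CPM. The hindbrain gene *Hoxa2* was at 0, but it was the only 1 of 10 listed midbrain and hindbrain genes at 0 in all mice. These 10 genes summed to 2.31 to 3.53 CPM in *Slc13a4*+/- mice and to 1.998 to 3.29 CPM in wild-type mice. *En1*, a gene of the midbrain and hindbrain, was at 0.128 to 0.605 CPM. The part of such tissue in the samples was not tested. Nas2Del_WT_1026 stood apart from the other wild-type mice, with a chi-square per gene of 34.1 and 40.5 against them and of 7.62 between those other mice. It was closer to every *Slc13a4*+/- mouse, with a chi-square per gene from 15.2 to 22.2. These values lay within the range of the other wild-type mice against the *Slc13a4*+/- mice. The cause of this pattern was not tested.

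Nonsense-mediated decay is a cytoplasmic surveillance pathway. When a ribosome stops well upstream of an exon junction, the exon junction complex left there by splicing recruits UPF1, UPF2 and UPF3B, and SMG1 phosphorylates UPF1, after which further SMG proteins lead to cleavage and decay of the RNA. The pathway removes transcripts with nonsense mutations. It also limits many normal transcripts, among them those of splicing factors, which carry ultraconserved "poison" exons with stop codons in frame. In neurons it takes part in the control of local translation and of splicing programmes. The annotation class is assigned from transcript structure, not from a measurement of decay. In all but 4 members the annotated reading frame ended upstream of an exon junction.

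The reading frames of 8 members end as printed here, chosen because they show each kind of stop among the members with many reads and among the splicing regulators. Each line gives the last 27 coding bases in lower case and the stop codon in capitals, from the GENCODE M21 transcript sequences, 5′ to 3′.
Atp2a2-203: actaactttagcgatatgttctggtctTGA
Kcna6-201: gcggagaaaaggatgctcaccgaggttTGA
Ppia-201: caaagacagcagaaaactttcgagctcTGA
Eif4a2-210: ttgcattggaggaacaaatgttcgaaaTGA
Rpsa-206: tggccgcttcacacctgggaccttcacTAA
Hnrnpu-206: gtccatgtgaatgtgctgtgtgaagagTAA
Srsf3-201: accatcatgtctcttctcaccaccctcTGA
Tra2b-206: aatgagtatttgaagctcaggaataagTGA
Atp2a2-203 and Kcna6-201 end at the stop codon of the full-length protein, at chr5:122457151-122457153 on the minus strand and chr6:126738335-126738337 on the minus strand of GRCm38. The stop codons of Ppia-201 (chr11:6418241-6418243, plus strand), Eif4a2-210 (chr16:23110065-23110067, plus strand) and Rpsa-206 (chr9:120130192-120130194, plus strand) lie at positions that other transcripts of the gene translate. Those of Srsf3-201 (chr17:29039485-29039487, plus strand) and Tra2b-206 (chr16:22259181-22259183, minus strand) lie outside all exons of protein-coding transcripts, in exon 4 of 7 and exon 2 of 10. The stop codon of Hnrnpu-206 (chr1:178325281-178325283, minus strand) lies in exon 14 of 17, at an exon part that coding transcripts do not translate or at its edge.

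Of the 2841 members, 2833 had the end of the reading frame 50 or more bases upstream of the last exon junction. The median distance was 490 bases (quartiles 221 and 1077), with a median of 4 junctions after the stop codon, and 546 members had 1 junction there. Of the 8 others, 4 had a shorter distance, from 30 bases, and 4 had no junction after the reading frame. This distance is part of what defines the class and is a description. TGA was the stop codon of 1589 of the 2839 members with an annotated stop (56.0%), TAA of 658 (23.2%) and TAG of 592 (20.9%).

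**Figure D1:**
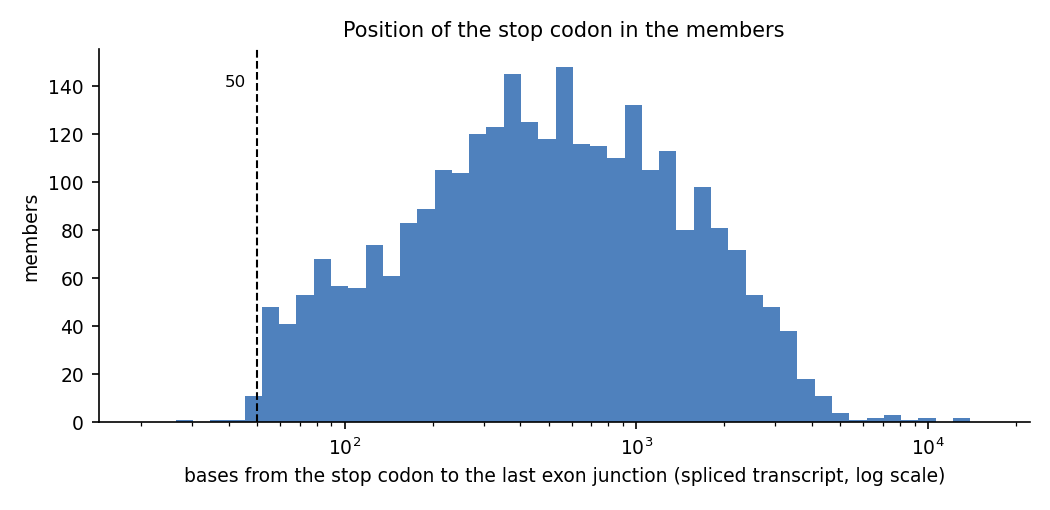
Number of members by the distance in bases from the stop codon to the last exon junction along the spliced transcript (log scale), with a dashed line at 50. The 2837 members drawn run from 30 to 13175 bases, nearly all to the right of the line, and 4 members with no junction after the reading frame are not drawn.

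The members fell into classes by where the stop codon lay in the protein-coding transcripts of the parent. In 1567 members it lay within sequence that a coding transcript translates, as after a skipped exon or a shifted frame. In 933 it lay outside the exons of coding transcripts, as in an added exon or extended exon, and in 235 it was the stop codon of a coding transcript itself, so that the added splicing lay in the 3′ untranslated region. Of 176 members of this last class with a complete frame and a coding transcript to compare, 103 encoded a protein as long as the longest one of the gene. Of the rest, 64 had the stop in an untranslated exon part or at an exon edge, 40 had parents with no coding transcript and 2 had no annotated stop.

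The reading frames were short in most members. Among 2239 members with a complete frame and a complete coding transcript in the parent, the median frame was 122 codons. The longest coding frame of the same genes had a median of 512 codons, and the median ratio was 30.2%. The frame was under 50% of the longest one in 1582 members and as long in 103. The start codon was shared with a coding transcript in 2182 members, so most members share the start of translation with their parent's protein.

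Reads were concentrated in few members. The median member had a mean of 105 estimated reads, and the highest, Atp2a2-203, had 68491. The 10 members with the most reads held 20.2% of all member reads and the top 100 held 49.9%. At the minimum, Alg5-202 with 20.04 reads and 0610010K14Rik-201 with 20.05 were just inside, and Chadl-202 with 19.94, Dnajc13-202 with 19.88 and Mipep-205 with 19.85 were just outside.

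The share of a member is its percent of all estimated reads of its parent gene in a mouse. The median share over members was 5.17% (quartiles 1.75% and 15.6%), with 180 members above 50% and 438 under 1%. Shares of TPM, which correct for transcript length, had a median of 7.49%, and again 180 members were above 50%. Members with the stop within coding sequence held 55.02% of member reads at a median share of 5.58%. Those with the stop outside coding exons held 24.3% at a median of 4.11%, and those that share a coding stop held 16.1% at a median of 6.65%. Shares above 50% occurred in each of these classes, in 22 of the 235 members with a shared stop, 80 of 1567 and 42 of 933.

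**Figure D2:**
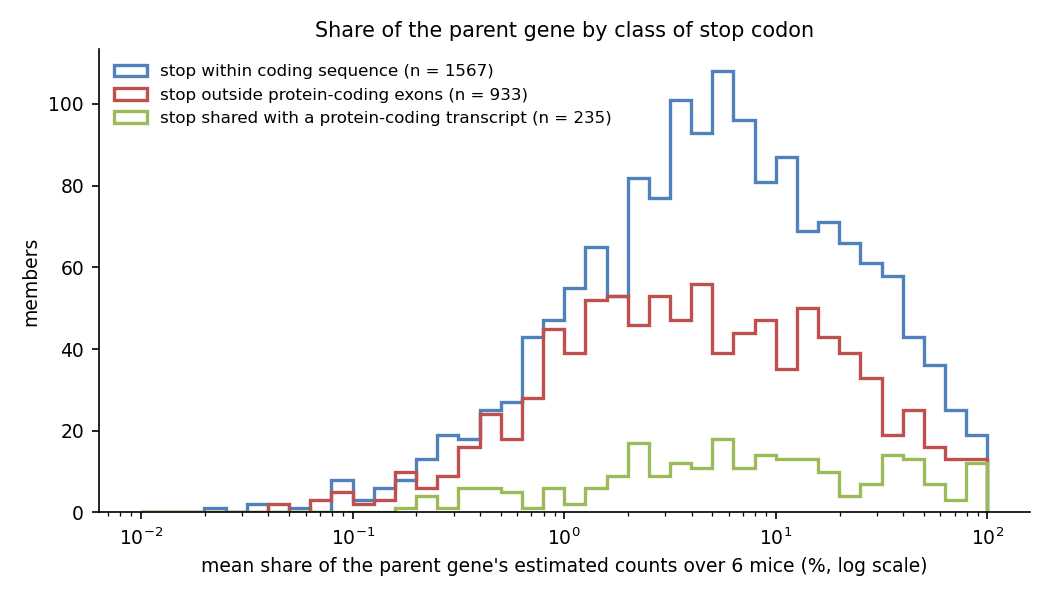
Number of members by their mean share of the parent gene's estimated reads over 6 mice (percent, log scale), in steps drawn for the 3 largest classes of stop codon. The classes overlap over nearly the whole range, with medians of 5.58%, 4.11% and 6.65%.

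The estimate of a share rests on the sequence by which a member can be told from other transcripts. Stretches of 31 bases were counted at every start position, so neighbouring ones overlap. The median member had 30 that no other listed M21 transcript holds. The median percent of a member's stretches that were its own was 3.10%, and 380 members (13.4%) had none. These 380 held 16.5% of member reads. Across mice the share varied with a median coefficient of variation of 27.3% in members with no such stretch and of 21.5% in the 946 with over 100. The number of reads went with a wider span, from 38.6% in the 1379 members with under 100 reads to 17.5% in 1214 with 100 to 1000 and 5.80% in the 248 with 1000 or more. Shares of members with 0 stretches of their own rest on the model of the quantification, and such members are marked where their shares are described.

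The member with the most reads was Atp2a2-203, a transcript of SERCA2, the calcium pump of the endoplasmic reticulum. It held 73.4%, 73.4% and 73.8% of the gene's reads in the *Slc13a4*+/- mice and 72.6%, 71.7% and 72.8% in the wild-type mice. The groups did not overlap but differed by little, with a log2 change of the share of 0.02 (SE 0.01, adjusted p = 0.599 in edgeR). It encodes the same 1044 residues as the longest coding transcript, with 1258 bases between the stop codon and the last junction.

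Mobp-204 followed with a mean of 52553 reads. *Mobp* encodes myelin-associated oligodendrocyte basic protein, a component of compact myelin. Its share was 77.9%, 75.7% and 76.3% in the *Slc13a4*+/- mice and 80.0%, 82.0% and 80.3% in the wild-type mice. All *Slc13a4*+/- mice were below all wild-type mice. The log2 change of -0.08 (SE 0.01) did not pass the test (adjusted p = 0.567 in edgeR). *Mobp* itself is among the 8 markers of oligodendrocytes and myelin, none of which was at 0. They summed to 8897 to 10371 CPM in *Slc13a4*+/- mice and to 10074 to 11273 CPM in wild-type mice. Of the 8, 2 had a negative change with an unadjusted p under 0.05 and 0 a positive one, beside 4.17% of all genes lower. Their part in the share was not tested.

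Ppia-201 held 84.2% to 86.1% of the reads of *Ppia* in *Slc13a4*+/- mice, against 85.0% to 85.3% in wild-type mice. *Ppia* encodes the peptidyl-prolyl isomerase cyclophilin A. Its frame has 40 codons against 164 in the longest coding transcript. Rpsa-206 held 63.3% to 65.0% and 63.3% to 64.5% of the reads of *Rpsa*, a protein of the small ribosomal subunit. Both genes have many processed copies in the genome, whose reads the quantification may divide with them, so their values are uncertain. The genotypes overlapped in both.

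The remaining members among the 10 with the most reads held smaller or similar shares. Ttc3-232 of the ubiquitin ligase gene *Ttc3* had a mean share of 20.7%, and Eif4a2-210 of the translation initiation helicase gene *Eif4a2* had 37.8%. Cbarp-212, from a gene for a regulator of voltage-gated calcium channels, had 78.8%. These 3 members had 0 stretches of their own, and their shares by TPM were 14.6%, 31.2% and 62.6%.

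Hnrnpu-206 held a mean of 45.3% of the reads of *Hnrnpu*, a nuclear RNA-binding scaffold protein, and encodes 793 of 800 residues. It is annotated as a readthrough transcript, a kind that joins exons of neighbouring genes. Atp2b2-206 of a plasma membrane calcium pump held 18.5%, and Srpk2-204 of a kinase of SR proteins held 56.2%. In none of these 10 members did the level or the share pass the test of genotype, and the adjusted p of the share ran from 0.567 for Mobp-204 upwards.

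**Figure D3:**
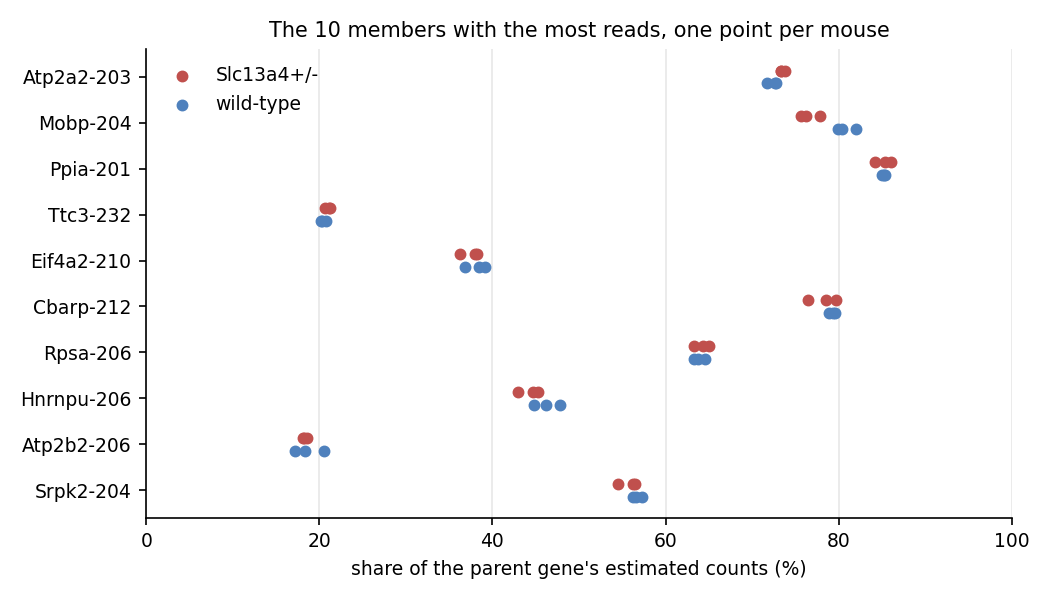
Share of the parent gene's estimated reads (percent, from 0) of the 10 members with the most reads, with 1 point per mouse, *Slc13a4*+/- in red and wild-type in blue. The points of a member lie close together beside the distance between members, and the genotypes are apart in Atp2a2-203 (71.7% to 72.8% in wild-type mice, 73.4% to 73.8% in *Slc13a4*+/- mice) and Mobp-204.

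Per gene, the members together took a median of 6.88% of the reads over the 2208 parents with a mean of 100 or more reads. In 925 of them the members took under 5%. In 182 they took over 50%, of which 142 had reads on coding transcripts and no readthrough transcript. In 25 parents all reads were on members, and 22 of these were readthrough loci, annotated genes that join exons of neighbouring genes. Gm20716 had the most reads of these, a mean of 7851. The 3 that are not readthrough loci were *Vmn2r108*, a vomeronasal receptor gene whose member had 0 stretches of its own, *Ces2f*, a carboxylesterase gene, and A530064D06Rik. In 24 of the 25 the member was the one transcript with reads, so the share is fixed at 100%.

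The parents with the highest shares beside reads on coding transcripts were looked up after these ties were seen. *Gbp5*, an interferon-induced guanylate-binding protein gene, had 94.3% on 2 members (range over the mice 92.1% to 95.6%). Gbp5-202 had 0 stretches of its own, and its part of the reads ran from 32.9% to 92.1% over the mice. *Ticrr*, which acts in the start of DNA replication, had 93.9% (90.7% to 97.7%), and *Bora*, an activator of the mitotic kinase Aurora A, had 91.4% (89.8% to 94.0%). These genes had 235, 156 and 202 mean reads, few for a forebrain at P20, and under 10 reads on coding transcripts.

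*Kcna6*, the gene of the voltage-gated potassium channel Kv1.6, had far more, a mean of 9065 reads. Kcna6-201 took 93.8%, 85.7% and 87.4% of them in the *Slc13a4*+/- mice and 96.0%, 93.8% and 95.2% in the wild-type mice. The groups were apart by a narrow gap, with a log2 change of -0.10 that did not pass the test (SE 0.04, adjusted p = 0.624 in edgeR). It encodes the full 529 residues of the channel in exon 1 and carries a junction 3120 bases beyond the stop codon, with 2 stretches of its own.

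The list went on with *Hyi*, a putative hydroxypyruvate isomerase gene, at 90.2%, *Hmgxb4*, a gene for an HMG-box protein, at 88.2%, *Styx*, the gene of a catalytically inactive phosphatase, at 86.8% on 3 members, *Zfp202*, a zinc-finger gene, at 86.5%, *Arhgap6*, the gene of a GTPase-activating protein, at 86.4% and *Ccdc144b* at 85.9%. *Hyi* had a mean of 0.52 reads on coding transcripts, so its share stands beside almost none. By TPM the share of Hmgxb4-206 was 49.2%, so that value depends on the length correction. Arhgap6-206 held 88.9%, 92.2% and 92.8% in *Slc13a4*+/- mice and 79.6%, 80.8% and 84.2% in wild-type mice, without overlap and without passing the test (log2 change 0.16, SE 0.04, adjusted p = 0.591 in edgeR).

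Members were set against gene lists by function, in which 13.2% of all 17096 tested genes were parents. Of the 13 SR proteins and TRA2 factors, which bind splicing enhancers and are known for poison exons, 10 were parents, with 12 members at a median share of 3.38%. The stop codon lay outside coding exons in 8 of the 12, against 933 of all 2841 members. Srsf9-205 held 47.4% of its parent's reads, Srsf3-201 18.9%, Srsf6-201 16.7% and Tra2b-206 8.63%.

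Srsf3-201 ran from 16.7% to 18.8% in *Slc13a4*+/- mice and from 18.4% to 21.5% in wild-type mice, and Tra2b-206 from 7.26% to 9.16% and from 6.76% to 12.7%. The genotypes overlapped in both. Srsf3-201 had 0 stretches of its own and Tra2b-206 had 29.

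Of the 27 hnRNPs, which mostly bind splicing silencers, 13 were parents with 20 members at a median share of 3.30%. Beside the readthrough transcript Hnrnpu-206, Hnrnpll-203 held 18.7%, Syncrip-203 9.50% and Hnrnpa1-203 6.58%. Ptbp1-201, of the repressor of neuronal exons that is itself low in neurons, held 18.5%. Of 69 spliceosome and other splicing factors, 40 were parents with 60 members at a median of 2.59%. Here Prpf4b-208 of a spliceosomal kinase held 57.4% with 0 stretches of its own, Srpk2-204 56.2%, Ddx5-208 of an RNA helicase 17.6% and Qk-202 of the glial RNA-binding protein quaking 10.4%. Tardbp-201 and Tardbp-228 of TDP-43, an RNA-binding protein that limits its own level, held 10.4% and 9.65%.

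Lists of other functions held parents as well, and no difference between lists was tested. Of the 80 cytosolic ribosomal proteins 15 were parents (18.8%), and the member Rps19-205 held 23.0% of its gene. Of 40 genes of the mitochondrial respiratory chain 8 were parents (20%). Ndufs4-202 and Ndufs4-204, of a subunit of complex I, held 34.6% and 24.5%, and Ndufa10-207, of another subunit, held 33.5%. Of 63 synaptic and excitability genes 17 were parents (26.98%), with 23 members at a median share of 0.673%. Dlg1-209 of a synaptic scaffold held 10.5%, Ank3-225 of ankyrin G 6.87%, Gria3-206 of an AMPA receptor subunit 6.14% and Dnm1-206 of dynamin, with 0 stretches of its own, 1.69%. Dlg4-205, of the gene of PSD-95, which is known for control by this pathway before neurons mature, held 0.17%.

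Members also came from the decay machinery itself. Of 15 core factors 2 were parents (13.3%): Smg1-204 took 20.7% to 23.2% of the reads of *Smg1*, the kinase of UPF1, over the 6 mice, and Smg5-202 took 1.39% to 1.80%. Of 15 genes of the exon junction complex and its partners, Gspt2-202 of a translation termination factor was the single member, at 5.43%. Of 16 RNA decay enzymes 6 were parents (37.5%), with 9 members, among them Edc3-202 of a decapping factor at 47.5%, Dis3-205 of the exosome nuclease at 33.4%, Cnot1-216 of the deadenylase scaffold at 21.5% and Pan3-208, with 0 stretches of its own, at 19.8%. Of 23 tested genes known as classical targets or hosts of small nucleolar RNAs, 8 were parents. Azin1-205 of antizyme inhibitor, a regulator of polyamine synthesis, held 11.7%, and Odc1-205 of ornithine decarboxylase held 6.88%.

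Of 41 genes that handle sulfate 5 were parents. Sumf2-202, from a gene related to the factor that activates sulfatases, had the highest share of these, 11.0%, 19.8% and 17.0% in *Slc13a4*+/- mice and 35.5%, 27.1% and 27.9% in wild-type mice. The groups did not overlap, and the difference did not pass the test (log2 change -0.92, adjusted p = 0.598 in edgeR). The others were Slc35b3-210 of a transporter of the sulfate donor PAPS at 10.03%, Ndst2-207 of a heparan sulfate sulfotransferase at 5.64%, Papss1-204 of PAPS synthase, with 0 stretches of its own, at 3.09% and Cdo1-202 of cysteine dioxygenase at 1.03%.

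Over all members, the reads summed to 1.91%, 1.94% and 1.91% of assigned reads in the *Slc13a4*+/- mice and, in turn, 1.89%, 1.91% and 1.87% in the wild-type mice. The ranges overlapped, with means of 1.92% ± 0.016 and 1.89% ± 0.019 (SD, n = 3 each, exact permutation test p = 0.3, two-sided). The design of 3 against 3 cannot give a p below 0.1. The median over parents of the members' share was 7.22% ± 0.16 in *Slc13a4*+/- and 7.02% ± 0.037 in wild-type mice (exact permutation p = 0.2).

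The median share over members was 5.0%, 5.33% and 5.08% in *Slc13a4*+/- mice and 4.93%, 4.89% and 4.87% in wild-type mice. It was the one of these 3 measures without overlap, at the smallest p the design allows (exact permutation p = 0.1), and it was added after the values were seen. Transcripts with retained introns, another class, took 2.03% to 2.45% of reads in *Slc13a4*+/- mice and 1.81% to 2.02% in wild-type mice, also without overlap (exact permutation p = 0.1). Their part in the members' median was not tested. With shares of TPM, the genotypes overlapped in that median (exact permutation p = 0.3).

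**Figure D4:**
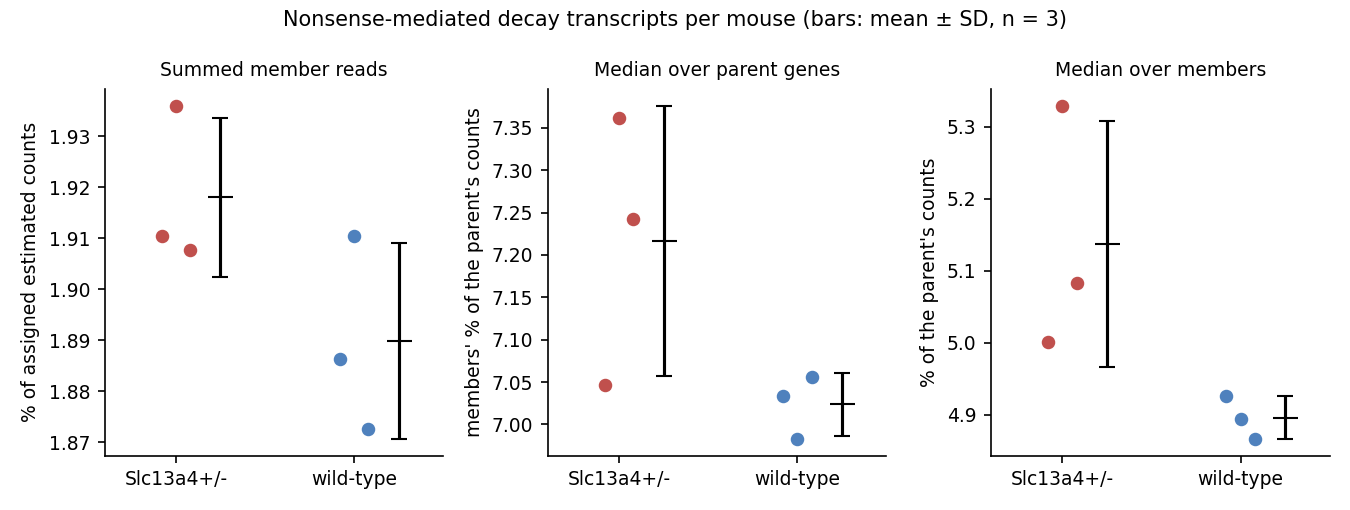
Summed member reads as percent of assigned reads, the median over parents of the members' share, and the median over members of their share, with 1 point per mouse and bars for mean ± SD (n = 3). The vertical axes do not start at 0: the genotypes overlap in the first and second panel and are apart by a narrow gap in the third (at least 5.0% against at most 4.93%).

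Single members were then compared between genotypes. The level of no member passed the test in edgeR (0 of 2796 tested members, and 0 of 54721 transcripts, 0%). At an unadjusted p under 0.05 there were 192 members, 111 higher and 81 lower in *Slc13a4*+/- mice, which is 6.87% beside 7.41% of all transcripts (4.02% higher and 3.39% lower). The median log2 change of members was 0.02 beside 0.01 for all transcripts. DESeq2 called 20 of 2792 members, 11 higher and 9 lower, beside 0.717% of all transcripts (0.263% higher and 0.454% lower), so members were called about as often as the rest. In counts simulated from these libraries edgeR missed most transcripts that were changed, and most transcripts called by DESeq2 were false calls, so neither a count of 0 in edgeR nor a call by DESeq2 alone settles whether a member differed.

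The share of no member passed the test in edgeR either (0 of 2760 members and 0 of 51482 transcripts, 0%). At an unadjusted p under 0.05 there were 200 members, 130 higher and 70 lower, 7.25% beside 7.85% of all transcripts tested (5.65% higher and 2.2% lower). Of the shares, 353 did not overlap between the genotypes (12.8%, beside 15% of all transcripts tested), and of the levels 385 (13.8%, beside 16.1%). On both measures the percent among members was below that among all transcripts, which were not matched to the members in reads. Limma on the log odds of the share called 4 members beside 0.221% of all transcripts, and diffSpliceDGE called 4 beside 0.234%. Both tools called Slc35f6-202, Plekha5-209 and Sclt1-205, and each called 1 further member, Nrbp2-205 by limma and Flna-213 by diffSpliceDGE.

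Sclt1-205 was the member with the smallest p for lower level. *Sclt1* encodes a protein of the distal appendages of the centriole, needed to form cilia. Its reads were 0 in all 3 *Slc13a4*+/- mice and 54.4, 163 and 102 in the wild-type mice, 6.72%, 19.9% and 10.2% of the gene. With a floor of 3 counts in each library at 0, the mean level was 40.2-fold lower (adjusted p = 0.410 by edgeR and 2.42e-08 by DESeq2). A 0 is here an estimate of the quantification, so this fold is not a lower bound. The share had an adjusted p of 0.564 in edgeR, 0.00728 in limma and 3.65e-08 in diffSpliceDGE.

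The other member of this parent, Sclt1-204, had 377, 326 and 388 reads in *Slc13a4*+/- mice and 140, 188 and 354 in wild-type mice. The coding transcript Sclt1-201 had 520, 413 and 435 reads against 484, 311 and 405. The gene as a whole differed by a log2 change of 0.12 (adjusted p = 0.563 in edgeR). Sclt1-205 had 28 stretches of 31 bases of its own.

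Slc35f6-202 showed the opposite pattern, with 137, 62.1 and 68.8 reads in *Slc13a4*+/- mice and 0 in all wild-type mice. *Slc35f6* encodes a solute carrier of lysosomes and mitochondria. With the same floor of 3 counts the level was 26.4-fold higher (adjusted p = 0.336 in edgeR and 1.41e-07 in DESeq2), which is again no lower bound. The share reached 4.71%, 2.28% and 2.39%. The other member of the gene, Slc35f6-204, had 380, 374 and 493 reads and 480, 468 and 475 reads in the same order of mice, and the gene did not pass the test (log2 change 0.01, adjusted p = 0.949 in edgeR).

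Plekha5-209 and Nrbp2-205 were also at 0 in all wild-type mice. Plekha5-209, from a gene for a phosphoinositide-binding protein, had 53.4, 81.8 and 18.3 reads in the *Slc13a4*+/- mice. With the same floor of 3 counts this was 15.5-fold higher (adjusted p = 0.644 in edgeR and 0.000173 in DESeq2). Nrbp2-205, from a gene for a pseudokinase, had 13.2, 50.4 and 60.6 reads. With that floor this was 12.5-fold higher (adjusted p = 0.665 in edgeR and 0.000811 in DESeq2), and neither fold is a lower bound. So 3 of 2841 members had reads in *Slc13a4*+/- mice alone and 1 in wild-type mice alone, beside 0.0774% and 0.0495% of all transcripts with the same minimum of reads. Both held little of their genes. Plekha5-209 took at most 1.86% and Nrbp2-205 at most 1.34% of their parent's reads. The coding transcript Nrbp2-201 had 111, 544 and 223 reads in *Slc13a4*+/- mice and 0, 441 and 642 in wild-type mice. Nrbp2-203, the other member of that gene, had 130, 147 and 149 reads against 88.3, 109 and 94.4.

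Other members with small p were present in both genotypes. Higher in *Slc13a4*+/- mice by level were C2cd2l-208, of a lipid transfer protein, at 6.58 ± 0.61 against 3.70 ± 0.55 CPM (log2 change 0.83, adjusted p = 0.592 in edgeR and 0.00354 in DESeq2), and Kat5-210, of the acetyltransferase TIP60, at 1.90 ± 0.46 against 0.68 ± 0.15 CPM (1.47, adjusted p = 0.622 and 0.0208). Lower were Ppil2-205, of a spliceosomal isomerase, at 2.26 ± 0.16 against 3.68 ± 0.11 CPM (-0.71, adjusted p = 0.558 and 0.00798), and Ccpg1-203, of a receptor for autophagy of the endoplasmic reticulum, at 2.13 ± 0.46 against 5.14 ± 1.52 CPM (-1.27, adjusted p = 0.665 and 0.0107). In all 4 the genotypes did not overlap. Tunar-202 of a neural transcript with a 48-codon frame was lower at 2.18 ± 0.10 against 3.66 ± 0.37 CPM (-0.75, adjusted p = 0.592 and 0.0102).

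Further members called by DESeq2 alone were looked up after their values were seen. Xylb-204, of xylulokinase, held 58.1%, 89.9% and 67.4% of its gene in *Slc13a4*+/- mice and 16.4%, 37.7% and 23.5% in wild-type mice, on 114, 177 and 156 reads against 20.0, 48.2 and 41.8. The genotypes were apart by level (log2 change 1.87, adjusted p = 0.665 by edgeR and 0.0151 by DESeq2), and the member had 0 stretches of its own. Fgfr2-226, of a fibroblast growth factor receptor, had 5.90 ± 1.24 against 2.98 ± 0.55 CPM (0.99, DESeq2 adjusted p = 0.0266), and Ptprg-204, of a receptor tyrosine phosphatase, had 7.71 ± 1.47 against 3.13 ± 1.14 CPM (1.30, DESeq2 adjusted p = 0.0144). Both were higher in every *Slc13a4*+/- mouse than in any wild-type mouse.

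Pde10a-205, of the striatal phosphodiesterase 10A, had 19.4 ± 3.12 against 11.6 ± 2.30 CPM (log2 change 0.75, DESeq2 adjusted p = 0.0779). Vps9d1-213, with 0 stretches of its own, was lower at 4.51 ± 0.82 against 7.77 ± 1.35 CPM (-0.78, DESeq2 adjusted p = 0.0481). Trip12-205, of a ubiquitin ligase, had 19.0, 18.8 and 27.3 reads against 226, 72.1 and 62.4, so that a single wild-type mouse stood far above the others. Flna-213, of the actin crosslinker filamin A, had 402, 836 and 259 reads in *Slc13a4*+/- mice and 0, 74.2 and 0 in wild-type mice. Its share did not pass the test in edgeR (adjusted p = 0.654) and did in diffSpliceDGE (adjusted p = 0.0113).

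Hspa5-204, from the gene of the chaperone BiP, was lower at 13.99 ± 0.12 against 17.2 ± 0.58 CPM (log2 change -0.30, SE 0.05, adjusted p = 0.558 in edgeR and 0.00906 in DESeq2). Its share was 2.60%, 2.40% and 2.60% in *Slc13a4*+/- mice and 2.65%, 2.63% and 2.77% in wild-type mice, which differ by little (log2 change -0.08, adjusted p = 0.698 in edgeR). *Hspa5* itself is among the 11 heat shock genes, none of which was at 0. They summed to 6924 to 7026 CPM in *Slc13a4*+/- mice and 7181 to 7558 CPM in wild-type mice. Of the 11, 7 had a negative change with an unadjusted p under 0.05, *Hspa5* among them, and 0 a positive one, beside 4.17% of all genes lower. DESeq2 with length offsets called 4 of the 11, and edgeR called 0. *Hspa5* as a gene had a log2 change of -0.18 in edgeR (adjusted p = 0.4995) and of -0.19 in DESeq2 with length offsets (adjusted p = 0.0947). Their part in the level of Hspa5-204 was not tested.

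By share, the smallest p among the higher members after Slc35f6-202 belonged to Aup1-206, of a lipid droplet and degradation factor. It held 27.8%, 29.98% and 27.7% in *Slc13a4*+/- mice and 22.9%, 22.6% and 23.4% in wild-type mice (log2 change 0.31, SE 0.05, adjusted p = 0.536 in edgeR). Itga8-207 of integrin alpha 8 held 27.05% to 31.8% against 17.6% to 19.2% (0.64, adjusted p = 0.565), Rxfp1-202 of the relaxin receptor 24.6% to 26.9% against 17.9% to 20.0% (0.46, adjusted p = 0.565) and Senp2-208 of a SUMO protease 21.3% to 23.3% against 19.0% to 19.5% (0.21, adjusted p = 0.565). No mouse of one genotype lay within the range of the other in these 4 members, while none passed the test in edgeR.

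Among the lower shares, Ppil2-205 held 4.003%, 3.76% and 3.57% in *Slc13a4*+/- mice and 6.21%, 6.33% and 5.76% in wild-type mice (log2 change -0.69, SE 0.09, adjusted p = 0.472 in edgeR). Rcor3-204 of a corepressor held 6.45% to 8.17% against 12.2% to 16.8% (-0.93, adjusted p = 0.565), and Fubp1-219 of a single-strand DNA-binding regulator of *Myc* held 1.79% to 1.91% against 2.51% to 3.10% (-0.62, adjusted p = 0.565). These genotypes did not overlap either. The parent *Ppil2* had a log2 change of 0.02 (adjusted p = 0.920 in edgeR).

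**Figure D5:**
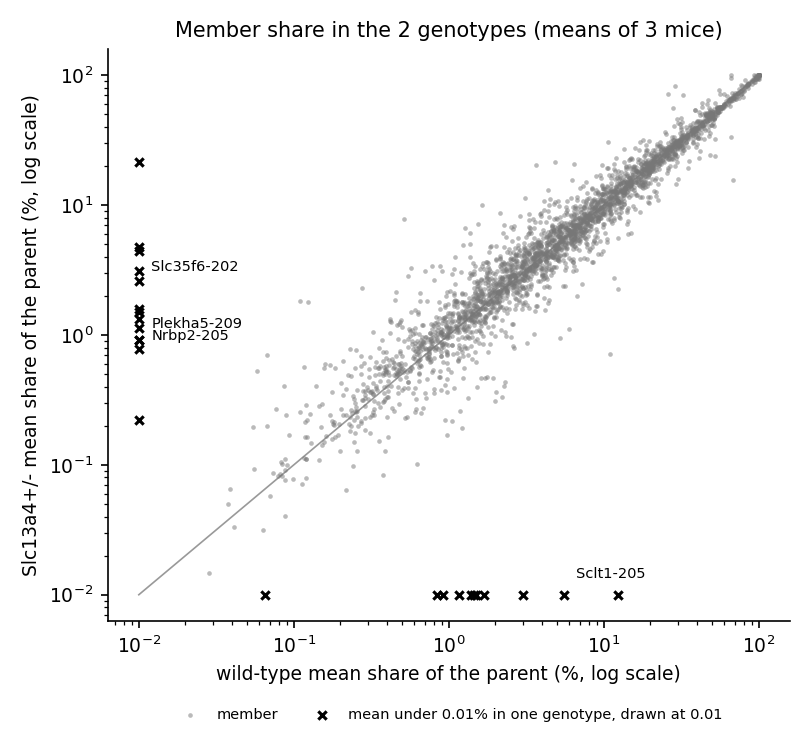
Mean share of the parent in *Slc13a4*+/- mice against that in wild-type mice (percent, log scales, means of 3 mice), 1 point per member of 2841, with the line of equal shares. Most members lie along the line, more widely at low shares, and 24 members with a mean under 0.01% in one genotype are drawn as crosses at 0.01, the 4 named ones among them.

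The parent genes were compared as sums over all their transcripts. None of 2253 tested parents passed the test in edgeR, beside 0.00585% of all 17096 genes. At an unadjusted p under 0.05 there were 248 parents (11%, beside 9.15% of all genes). Of these 185 were higher in *Slc13a4*+/- mice, 8.21% beside 4.98% of all genes, and 63 were lower, 2.8% beside 4.17%. The median log2 change was 0.0062 over parents and -0.0045 over all genes, and 53.5% of parents were above 0 beside 47.8% of all genes. The count in edgeR turned on the libraries and the filter: 31 parents passed without Nas2Del_WT_1026 (25 higher, 6 lower), 1 without Nas2Del_WT_1016 and 20 with no filter on low counts (17 higher, 3 lower). The percent of all genes that passed under these settings is not given here, so these counts cannot tell parents from other genes.

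DESeq2 with length offsets called 22 parents, 16 higher and 6 lower, beside 0.502% of all genes tested (0.308% higher and 0.194% lower). On the plain counts it called 9, 8 higher and 1 lower, beside 0.314%. In 7 of the 22 the CPM overlapped between the genotypes. Guf1, of a mitochondrial translation factor, was higher at 34.0, 36.3 and 37.1 CPM against 29.3, 31.02 and 30.6 CPM (DESeq2 log2 change 0.25, SE 0.06, adjusted p = 0.0253), and its members held 16.4% of its reads. Clk1, a kinase of SR proteins, was at 56.2, 70.8 and 63.7 CPM against 49.1, 54.8 and 51.7 CPM (0.28, SE 0.08, adjusted p = 0.0994), and its members held 8.10%. Mill2, of an MHC class I-like protein, was lower at 1.42, 1.46 and 1.32 CPM against 2.27, 2.08 and 1.91 CPM (-0.79, SE 0.21, adjusted p = 0.0437), with 65.8% of its reads on its member. In each of these 3 genes the genotypes did not overlap, and in edgeR the adjusted p was 0.4995.

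The parent with the smallest adjusted p in that fit was among the 7 with overlap. Syne2, of a nuclear envelope protein that links the nucleus to the cytoskeleton, was at 35.6, 38.8 and 36.8 CPM against 32.9, 35.1 and 38.4 CPM. Its log2 change was 0.36 in DESeq2 with length offsets (SE 0.07, adjusted p = 0.00269) and 0.06 in edgeR (adjusted p = 0.776). Irf2, of an interferon regulatory factor, had a log2 change of 0.49 and 0.00 in the same order, and Rrp1b, of a nucleolar protein, one of 0.47 and 0.04.

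Of the 69 spliceosome and other splicing factors, 13 genes had a positive and 0 a negative change with unadjusted p below 0.05, beside 852 higher and 713 lower of 17096, with a median log2 change of 0.02. None of them passed the adjusted test in edgeR, and DESeq2 with length offsets called 2. The 60 members of this list had a median log2 change of the share of 0.08, beside 0.03 over all transcripts tested. With unadjusted p below 0.05 there were 8 above and 2 below 0, beside 5.65% and 2.2% of all transcripts, and none passed the adjusted test. Of the 13 SR proteins and TRA2 factors 2 had a positive and 0 a negative change with unadjusted p below 0.05, 0 passed in edgeR and DESeq2 with length offsets called 1. Their members had a median log2 change of the share of -0.01.

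Markers of other cell types were counted at the same threshold. With unadjusted p below 0.05, 5 of 9 microglial, 4 of 8 astrocyte, 4 of 10 choroid plexus and 3 of 8 endothelial markers had a negative change and 0 a positive one, beside 4.17% of all genes lower. Microglial markers summed to 418 to 431 CPM in *Slc13a4*+/- mice and to 448 to 459 CPM in wild-type mice, and choroid plexus markers to 404 to 469 and 489 to 495 CPM, both without overlap. The sums of the astrocyte markers, 5850 to 5959 and 5859 to 6415 CPM, and of the endothelial markers, 242 to 259 and 258 to 289 CPM, overlapped. Of 8 meningeal fibroblast markers 1 had a positive and 0 a negative change with unadjusted p below 0.05. The ependymal, blood and forebrain neuron markers had 0 of either. None of these markers was at 0 in all mice, and none passed the adjusted test in edgeR. DESeq2 with length offsets called 1 choroid plexus and 1 astrocyte marker among these markers. Their part in the changes of the splicing factors was not tested.

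The genes of the decay machinery did not pass the test. Of 15 core factors 0 had an unadjusted p under 0.05, with log2 changes from -0.12 to 0.11 and a median of 0.00. *Upf1*, the helicase at the centre of the pathway, was at 62.4 ± 1.02 CPM in *Slc13a4*+/- and 65.7 ± 3.70 CPM in wild-type mice (log2 change -0.08, SE 0.05, adjusted p = 0.643 in edgeR), and *Smg1* at 175 ± 13.97 and 162 ± 14.2 CPM (0.11, SE 0.07, adjusted p = 0.688). *Upf2* was at 44.1 ± 2.13 and 46.6 ± 3.37 CPM. With unadjusted p below 0.05 there was 1 of 15 genes of the exon junction complex, *Cwc22*, which recruits EIF4A3 to the spliceosome, at 21.2 ± 0.65 against 19.7 ± 0.64 CPM (0.10, adjusted p = 0.542), and of 16 decay enzymes 1, the nuclear exonuclease gene *Xrn2*, at 63.0 ± 1.95 against 58.9 ± 0.20 CPM (0.10, adjusted p = 0.524).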

How the data were processed

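Forebrain RNA of 6 mice at P20 was measured. Per the methods, the authors depleted rRNA, prepared stranded libraries, sequenced paired ends and ran Salmon (v1.2.0), with its options for selective alignment checks and GC bias, and the submitters' notes also name DESeq. The deposited estimated counts, which need not be whole, and the deposited TPM values are per transcript. The sources used here do not give the index behind them. Identifiers without version matched 115973 transcripts of 35523 genes in GENCODE M21 (GRCm38), and 1162 were set aside.

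The estimated counts were rounded and tested with the quasi-likelihood test of edgeR 4.0.16 (R 4.3.3) after its default filter, TMM scaling and Benjamini-Hochberg adjustment over all features, at adjusted p under 0.1. Shares were tested in the same model with the log of the parent gene's reads as offset. Values per mouse were compared by two-sided exact permutation tests. DESeq2 1.42.0, limma 3.58.1 on log odds (0.5 reads or 0.01 TPM added), diffSpliceDGE, other scaling and filters, and leaving out each mouse were alternatives. Scripts were tested on simulated counts, in which edgeR missed most changed transcripts and most transcripts called by DESeq2 were false calls. In the tests of shares, other transcripts of a gene with a changed transcript were scored as false. Their shares change too, so the simulation cannot give the rate of false calls of diffSpliceDGE or limma. Python 3.11.15 counted the 31-base stretches, over listed M21 transcripts.

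Depth was 60340337 to 80410582 reads per mouse, and each member had at least 20 on average, which limits the precision of low shares. Labels give each mouse a number of its own and neither litter nor sex, so p-values measure the spread between these mice. All pairs of libraries differed beyond sampling noise (chi-square of 6.61 to 40.5 per gene). The members and lists were chosen with earlier results of these data known. Members are named as the 10 with the most reads, the 10 parents with the highest share, the 5 per direction with the smallest p in each test, the 4 with the most reads of each list and 3 on each side of the minimum. Those outside this rule are said to be added or were chosen after their values were seen: Ptbp1-201, the Tardbp members, Rps19-205, Dlg4-205, Cdo1-202, Sclt1-204, Slc35f6-204, Flna-213, *Syne2*, *Irf2*, *Rrp1b* and the further members and parents called by DESeq2. Values of a few transcripts that the naming rules would list are not reported here.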

Additional observations from a re-analysis of the deposited data

How the results depend on the processing

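No paired analysis was possible because each mouse carries a number of its own. For the 10 members named by level and the 10 by share, 16 of 190 values under other settings passed the threshold, all under DESeq2, limma or diffSpliceDGE. Their direction was fixed by choosing them for the smallest p in these mice and is no sign of stability. The count of members called by level was 0 under other size factors, no filter and each mouse left out (0 to 0), and 20 with DESeq2. By share it was 0 without a filter and with each mouse left out (0 to 0), 4 with diffSpliceDGE, 4 with limma and 3 with limma on TPM. The count of parents called was 9 with DESeq2, 22 with its length offsets, 20 without a filter, and 0 to 31 with 1 mouse left out: 31 (25 higher, 6 lower) without Nas2Del_WT_1026 and 1 without Nas2Del_WT_1016. The cause of these differences was not tested, and the percent of all genes passing without a filter or with a mouse left out is not given. The *Slc13a4*+/- minus wild-type difference stayed above 0 for the summed share (0.014 to 0.039 percentage points), the median over parents (0.12 to 0.37) and the median over members (0.14 to 0.31) under TPM, other minimums, each mouse left out, only members with 31-base stretches of their own, and no readthrough loci; the last 2 and the median over members were added after the data were seen. For the median over members, the exact permutation p was 0.3 under TPM, 0.2 at a minimum of 50 reads and 0.2 for members with stretches of their own. In those settings the genotypes overlapped. It stayed at 0.1 at a minimum of 10 reads and without readthrough loci. Shares of members with under 100 reads varied by a median of 38.6% between mice, and the part of depth in this was not tested.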
